A study of Mus musculus with 3 samples.

Results

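The genes described here are the coiled-coil domain (Ccdc) genes of the mouse, taken as every gene of an assembled transcript table whose symbol is Ccdc followed by a digit. The rule found 144 genes with 254 transcript models, of 22426 RefSeq-derived genes and 50081 models in the table. The study sequenced capped RNA 5′ ends (CAGE) and polyadenylated RNA 3′ ends (PAS-Seq) from mouse testes, in 1 CAGE library at 10.5 days post partum (dpp), 1 CAGE library of adults and 1 PAS-Seq library of adults. All 3 libraries were total RNA of wild-type C57BL/6J testes. The table is 1 set of models for the whole series and gives no value per library, so levels, ages and library depths could not be compared, and no difference below has a replicate error. RefSeq-derived models were listed whether or not a gene is known to be active in testis, so a listed gene need not be expressed there.

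A coiled coil is a protein fold in which alpha helices wind around each other, and it serves as a rod, a spacer or a dimerization surface. The symbol Ccdc was given to many genes when little but this fold was predicted, so the set is a naming class and not a family by descent. In testis many of its known members build the sperm flagellum, which is a modified motile cilium: Ccdc39 and Ccdc40 set the axonemal repeat on which dynein arms and the nexin-dynein regulatory complex sit, and Ccdc103, Ccdc114 and Ccdc151 serve in docking the outer dynein arms. Others act in meiotic chromosomes, at centrosomes, in mitochondria, in the nucleus or in membrane traffic. Of the 144 symbols, 109 are still current in the GRCm38.p6 gene tables, 35 have since been replaced and 0 were unmatched. Among those replaced are Ccdc164 (now Drc1), Ccdc135 (Drc7) and Ccdc108 (Cfap65) of the axoneme, Ccdc155 (Kash5), Ccdc79 (Terb1) and Ccdc36 (Iho1) of meiosis, and Ccdc109a (Mcu), the pore of the mitochondrial calcium uniporter. The table holds no protein sequence, so the fold itself was not checked here.

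Promoter windows are shown first, because the starts of these genes carry several of the patterns described below. The windows are RefSeq sequences on GRCm38.p6, each reaching from 250 bases before to 50 bases after an annotated start, and 119 of the 144 genes had at least 1. The first pair are Ccdc159 and Ccdc87, a sperm protein gene, which lie head to head with a coding gene. Capitals mark GGGCGG or its reverse complement, the GC box.
Ccdc159, chr9:21927221-21927520, plus strand: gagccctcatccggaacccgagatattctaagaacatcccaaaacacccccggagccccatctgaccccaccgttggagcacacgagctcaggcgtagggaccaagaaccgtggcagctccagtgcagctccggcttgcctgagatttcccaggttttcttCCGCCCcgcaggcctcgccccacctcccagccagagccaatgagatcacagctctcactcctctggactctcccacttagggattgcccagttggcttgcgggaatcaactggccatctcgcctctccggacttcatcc
Ccdc87, chr19:4839116-4839415, plus strand: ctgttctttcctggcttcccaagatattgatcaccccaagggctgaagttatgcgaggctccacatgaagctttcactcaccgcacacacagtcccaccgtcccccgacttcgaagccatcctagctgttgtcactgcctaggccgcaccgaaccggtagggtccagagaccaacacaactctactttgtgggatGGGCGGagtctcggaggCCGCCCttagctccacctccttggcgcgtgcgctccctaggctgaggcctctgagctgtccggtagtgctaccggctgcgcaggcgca
The other 4 are genes of the axoneme list with the letters GTTGCC or their reverse complement in capitals. These letters are an arm of the X-box, the element read by RFX factors at many genes of motile cilia. Ccdc103 is a dynein arm assembly factor, Ccdc113 and Ccdc96 form a connector of the axoneme, and Ccdc164 (Drc1) is a base subunit of the nexin-dynein regulatory complex.
Ccdc103, chr11:102880974-102881273, plus strand: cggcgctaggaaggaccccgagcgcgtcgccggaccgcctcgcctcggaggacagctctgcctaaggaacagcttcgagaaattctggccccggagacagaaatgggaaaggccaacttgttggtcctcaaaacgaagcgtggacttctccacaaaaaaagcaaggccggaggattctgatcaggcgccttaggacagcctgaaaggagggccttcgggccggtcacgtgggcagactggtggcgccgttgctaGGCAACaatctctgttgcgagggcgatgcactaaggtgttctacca
Ccdc113, chr8:95533850-95534149, plus strand: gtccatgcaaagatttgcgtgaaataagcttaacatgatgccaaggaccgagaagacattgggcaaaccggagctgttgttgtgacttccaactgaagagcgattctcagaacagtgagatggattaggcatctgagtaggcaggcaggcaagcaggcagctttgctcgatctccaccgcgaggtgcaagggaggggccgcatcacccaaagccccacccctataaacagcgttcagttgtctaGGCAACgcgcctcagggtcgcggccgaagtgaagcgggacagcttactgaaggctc
Ccdc164, chr5:30281143-30281442, plus strand: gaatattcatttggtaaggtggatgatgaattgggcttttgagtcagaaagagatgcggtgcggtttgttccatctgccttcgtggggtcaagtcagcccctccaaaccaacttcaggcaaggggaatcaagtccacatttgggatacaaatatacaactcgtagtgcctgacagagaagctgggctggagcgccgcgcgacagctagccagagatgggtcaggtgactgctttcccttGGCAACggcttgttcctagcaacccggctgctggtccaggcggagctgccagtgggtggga
Ccdc96, chr5:36484338-36484637, plus strand: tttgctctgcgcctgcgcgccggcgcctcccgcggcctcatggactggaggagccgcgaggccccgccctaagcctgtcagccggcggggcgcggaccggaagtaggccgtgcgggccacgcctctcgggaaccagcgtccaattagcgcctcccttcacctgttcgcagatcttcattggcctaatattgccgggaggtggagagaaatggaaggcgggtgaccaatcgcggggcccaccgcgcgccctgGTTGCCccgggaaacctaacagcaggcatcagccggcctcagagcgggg
The letters began 4 bases after the annotated start in Ccdc103, 6 bases before it in Ccdc113, 11 bases before it in Ccdc164 and 1 base after it in Ccdc96.

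The table codes each model with letters that begin NM, NR, XX, PG or PI, and the labels do not say what the letters stand for. A code other than XX was carried by 131 of the 144 Ccdc genes (91.0%). The background was 62.3% of all RefSeq-derived genes and 65.4% of the coding ones. Transmembrane (Tmem) genes, a class named in the same way, stood at 72.6%, and the kinesin and axonemal dynein genes (Kif and Dnah), motors of microtubules, at 89.6%. The Ccdc share was thus close to that of the motor genes and above those of the other sets. By model, 156 of the RefSeq-derived Ccdc models were coded NM and 18 XX, while 78 of the CUFF models, which bear assembler names, were coded NM and 2 XX.

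Only XX models were listed for 13 Ccdc genes: Ccdc3, Ccdc17, Ccdc51, Ccdc78, Ccdc82, Ccdc85a, Ccdc109b, Ccdc117, Ccdc121, Ccdc125, Ccdc129, Ccdc153 and Ccdc162. They include Ccdc109b (Mcub), the inhibitory paralogue of the uniporter pore, while Ccdc109a, the pore itself, was coded NM. Ccdc78, a factor of centriole amplification in multiciliated cells, was the only gene of the 29 in the axoneme list with XX models alone. Ccdc3, which encodes a secreted protein, and Ccdc117 were the 2 that also had a CUFF model, and both of those models were XX. Ccdc82 was the only Ccdc gene on an unplaced sequence. In Ccdc112 and Ccdc68 the codes were mixed, with an XX RefSeq-derived model beside an NM CUFF model. This arrangement was found in 148 of the 543 genes with mixed codes in the table.

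Ccdc117 was also the only Ccdc gene with a piRNA-named model, called pi-Ccdc117.1 in the table and coded PG. PIWI-interacting RNAs (piRNAs) are small RNAs of germ cells that are cut from long precursors. The model lay at chr11:5428893-5442204 on the minus strand (mm9), with 5 exons and 3383 nt, and shared all 4 junctions of the RefSeq-derived Ccdc117 model. That model has 3401 nt, so the pair coincide almost throughout. Ccdc117 had XX models alone, as had 107 of the 112 genes with a gene-named piRNA model (95.5%).

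The longest model of a Ccdc gene had a median spliced length of 2695 nt (quartiles 1858 and 3642.8) and a median of 9 exons (quartiles 6 and 15). Coding genes had medians of 2507.5 nt and 7 exons. Ccdc models were thus near coding genes in length but had more exons. Their median span on the genome was 24743 bp, against 16452 bp, and their median last exon was 786.5 nt, against 1051 nt. Tmem genes went the other way with a median of 5 exons and a last exon of 1260.5 nt.

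The longest Ccdc models were those of Ccdc112 (11528 nt, a CUFF model), Ccdc88c (10590 nt), Ccdc7 (9529 nt), Ccdc88a (9262 nt) and Ccdc93 (7256 nt). Ccdc88a encodes girdin, a regulator of actin and heterotrimeric G proteins, Ccdc88c its relative Daple, and Ccdc93 a subunit of an endosomal recycling complex. The shortest were those of Ccdc152 (798 nt), Ccdc23 (803 nt), Ccdc107 (814 nt), Ccdc12 (821 nt) and Ccdc28b (840 nt). Ccdc23, now Svbp, encodes a small partner of the vasohibins that remove tyrosine from tubulin. By exon number Ccdc7 came first with 60, followed by Ccdc108 with 33, Ccdc88a with 32, Ccdc88c with 30 and Ccdc18 with 29. The largest span was that of Ccdc46 (Cep112), a centrosomal protein gene, with 435350 bp.

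**Figure D1:**
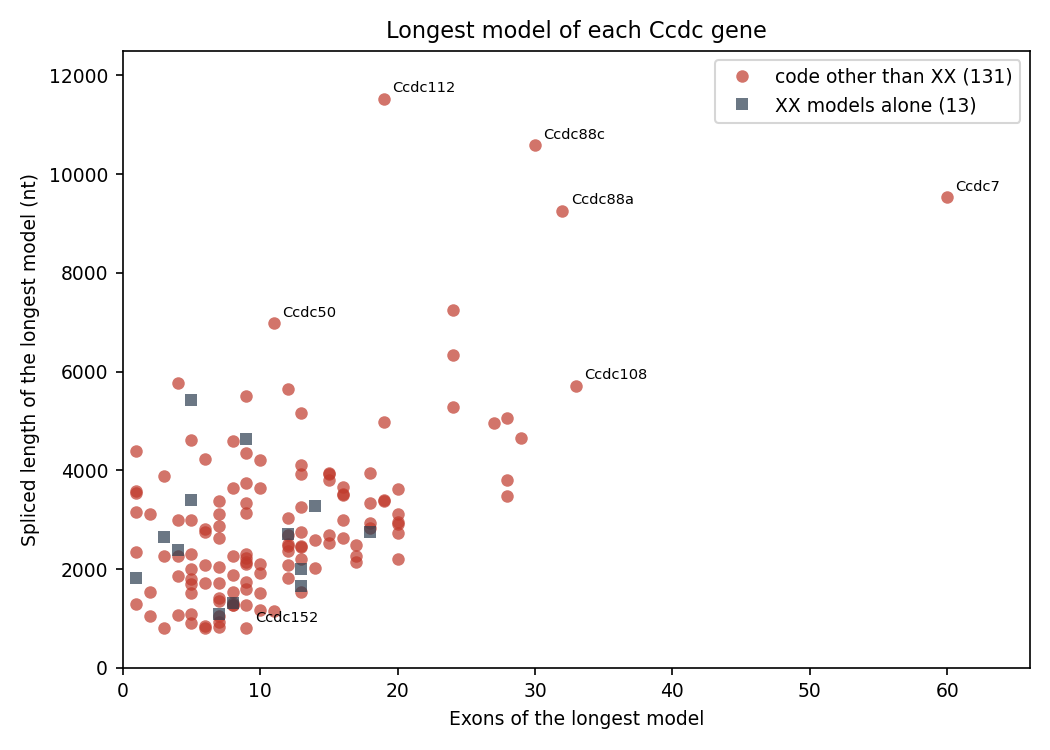
Exons (horizontal axis, number) and spliced length (vertical axis, nt) of the longest model of each of the 144 Ccdc genes, 1 point per gene, with red circles for the 131 genes with a code other than XX and dark squares for the 13 with XX models alone. Ccdc7 stands apart at 60 exons and Ccdc112 at 11528 nt, and the genes with XX models alone lie within the range of the others.

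In 7 Ccdc genes the longest model was a single exon (4.86%, against a background of 13.7% of all genes, 10.5% of coding genes and 5.35% of genes with a code other than XX). They were Ccdc8, Ccdc54, Ccdc85b, Ccdc87, Ccdc89, Ccdc96 and Ccdc121. Their lengths ran from 1296 nt in Ccdc54 to 4401 nt in Ccdc85b. Ccdc8 belongs to a growth-control complex with Cul7 and Obsl1, and its single exon came from a CUFF model of 3544 nt that began 756 nt before and ended 730 nt after the RefSeq-derived model.

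CUFF models that bear the symbol were listed for 57 Ccdc genes (39.6%), 80 models in all. The background was 28.5% of all genes and 30.6% of coding genes, and 39.4% among genes with a code other than XX. Of the 131 Ccdc genes coded alike 55 had such a model (42.0%), so the Ccdc share was close to that of genes with the same codes. Of the 144 genes, 74 had 1 model, 43 had 2, 17 had 3, 7 had 4 and 3 had 5. The 3 with 5 models were Ccdc132 (Vps50), a subunit of an endosomal tether, Ccdc7 and Ccdc9.

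At least 2 starts, counting starts within 50 nt as 1, were listed for 42 Ccdc genes (29.2%). The background was 26.6% of all genes, 28.5% of coding genes and 35.8% of genes with a code other than XX. At least 2 ends were listed for 51 (35.4%). The background was 23.0% of all genes, 24.4% of coding genes and 32.4% of genes with a code other than XX. Of the 131 Ccdc genes with a code other than XX, 40 had at least 2 starts (30.5%) and 48 at least 2 ends (36.6%). Starts were thus near the share of coding genes and below that of genes coded alike, while ends were above both. At least 2 RefSeq-derived models were listed for 24 Ccdc genes (16.7%), against 16.1% of all genes, 17.1% of coding genes and 20.3% of genes with a code other than XX. With RefSeq-derived models alone, 6 Ccdc genes had at least 2 starts, against 6.50%, 6.94% and 8.22% of the same 3 sets, and 8 had at least 2 ends, against 3.23%, 3.35% and 4.19%. Most of the alternatives thus came from CUFF models.

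Among the 70 Ccdc genes with several models, 24 had more ends than starts (34.3%), 13 had more starts than ends (18.6%) and 33 had equal numbers. The mean was 1.74 starts (SD 0.716, n = 70 genes) and 1.93 ends (SD 0.709). Over all 8633 genes with several models the balance was the reverse, with more ends in 19.2% and more starts in 32.9%, and means of 1.89 starts and 1.70 ends. Tmem genes were like the rest of the table with more ends in 12.8% and more starts in 36.2%, while Kif and Dnah genes had more ends in 26.5% and more starts in 32.4%. Of these sets, the Ccdc genes alone had more ends as the commoner case, a comparison of counts for which no test was run. The largest number of starts was 4, in Ccdc64 (Bicdl1), a dynein adaptor gene, and the largest number of ends was 4, in Ccdc132.

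**Figure D2:**
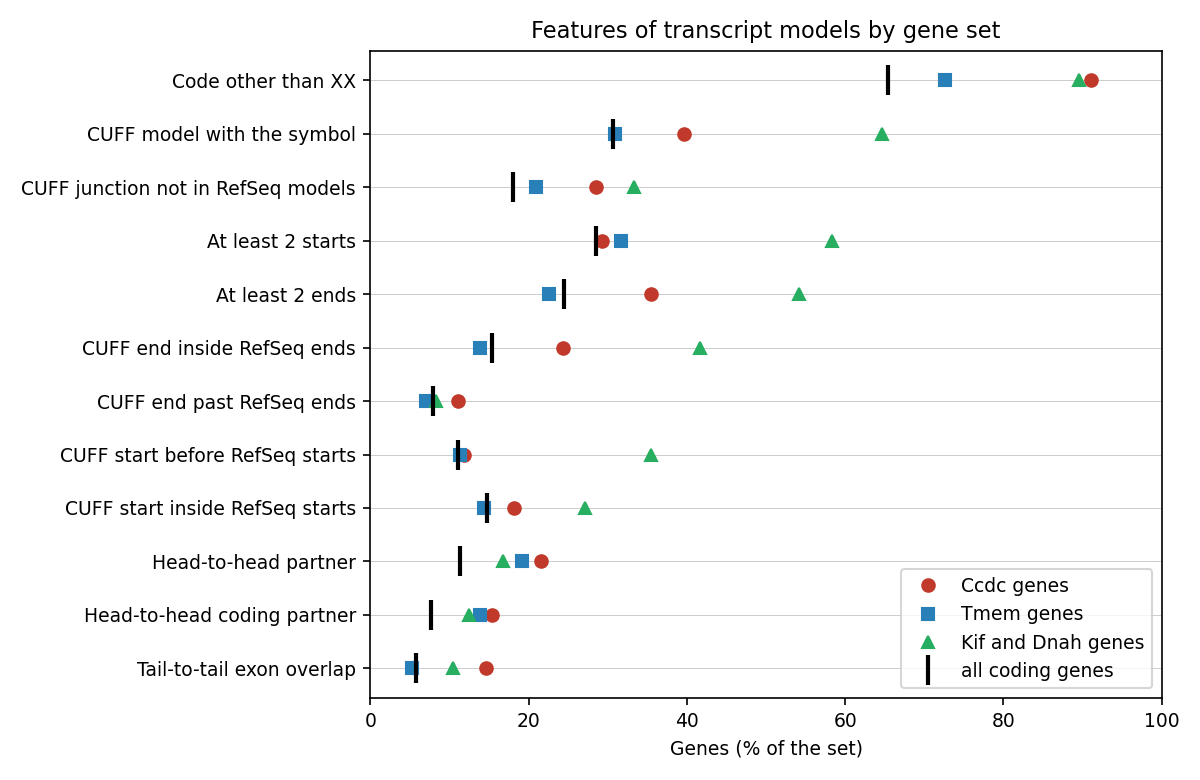
Share of genes (horizontal axis, % of the set) with each feature of the transcript models (vertical axis) for Ccdc genes (red circles), Tmem genes (blue squares), Kif and Dnah genes (green triangles) and all coding genes (black bars). Ccdc genes lie above all coding genes for codes other than XX (91.0%), for at least 2 ends (35.4%), for head-to-head partners and for tail-to-tail overlap, and beside them for at least 2 starts (29.2%).

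The start of a CUFF model lay more than 50 nt from every RefSeq start of its gene in 39 Ccdc genes (27.1%, background 22.0% of all genes, 23.6% of coding genes and 30.4% of genes with a code other than XX). It lay before all of them in 17 genes (background 10.5%, 11.1% and 15.2% of these sets) and elsewhere in 26 (background 13.4%, 14.7% and 17.9%). Of the 80 models, 22 began upstream, by a median of 214 nt (60 to 5165 nt), and 32 began elsewhere, at a median of 15462 nt from the nearest RefSeq start (57 to 222842 nt). Upstream shifts were therefore short and the others long, with 18 of the 32 over 10000 nt. The 5165 nt belonged to Ccdc114, an outer dynein arm docking gene, whose CUFF model had 2 exons outside the RefSeq exons. The largest distance of all was that of Ccdc148, 222842 nt inside.

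Ccdc109a, the uniporter pore gene, had 2 CUFF models that began 147182 nt inside the RefSeq-derived start, past its 2 first exons, and ended 1423 nt beyond its end. Their distances were followed by those of Ccdc3 (91071 nt), Ccdc7 (90958 nt), Ccdc132 (72291 nt), Ccdc64 (70038 nt), Ccdc93 (55891 nt), Ccdc91 (55492 nt), Ccdc57 (51720 nt) and Ccdc46 (44586 nt). All of these starts lay downstream of the first RefSeq start, and that of Ccdc7 lay past the last RefSeq exon. The Ccdc3 model was a single exon of 2351 nt that covered the last RefSeq exon and ended 331 nt past it. In Ccdc64 the 3 CUFF models began 838 nt upstream, 58271 nt inside and 70038 nt inside, and all 3 ended at the same place, 1052 nt past the RefSeq end. In Ccdc88b, a relative of girdin known from immune cells, the 3 CUFF models shared a start 6941 nt inside and the RefSeq end.

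The end of a CUFF model lay more than 50 nt from every RefSeq end in 48 Ccdc genes (33.3%, background 20.7% of all genes, 22.1% of coding genes and 29.6% of genes with a code other than XX). It lay beyond all of them in 16 genes (background 7.56%, 7.85% and 9.99% of these sets) and short of the last in 35 (24.3%, background 14.2%, 15.4% and 21.0%). Of the 80 models, 24 ended farther downstream, by a median of 1569 nt (331 to 247633 nt), and 41 ended short, by a median of 1712 nt (52 to 125049 nt). Of all CUFF models of RefSeq-derived genes 45.9% ended short, against 51.2% for Ccdc. Only 15 Ccdc CUFF models ended within 50 nt of a RefSeq end (18.8%, against 29.3% over the table), and 26 began within 50 nt of a RefSeq start (32.5%, against 25.6%).

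The largest end distances were those of Ccdc7 (247633 nt downstream), Ccdc148 (125049 nt short), Ccdc112 (49101 nt downstream), Ccdc147 (46874 nt short), Ccdc158 (43900 nt short), Ccdc141 (35535 nt short), Ccdc30 (29231 nt short), Ccdc62 (22212 nt short), Ccdc58 (20048 nt short) and Ccdc138 (15747 nt short). Ccdc147 is now Cfap58, a flagellar protein gene, and its short model kept the known junctions of 15 exons. Ccdc62 is a gene of spermatid development. Models that ended short were thus the commoner kind, and the 2 far extensions are described below. Some of those that ended short were pieces of their genes. That of Ccdc58 was a single exon of 438 nt. Those of Ccdc30 and Ccdc158 also began inside, 31567 and 11075 nt from the RefSeq start. The start and end distances of Ccdc148 came from 2 CUFF models that do not overlap. A shortened model kept at the RefSeq start was seen in Ccdc141, where both CUFF models began exactly there and ended 3726 nt and 35535 nt short, and in Ccdc144b, where the 2 ends lay 10653 nt and 12249 nt short.

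**Figure D3:**
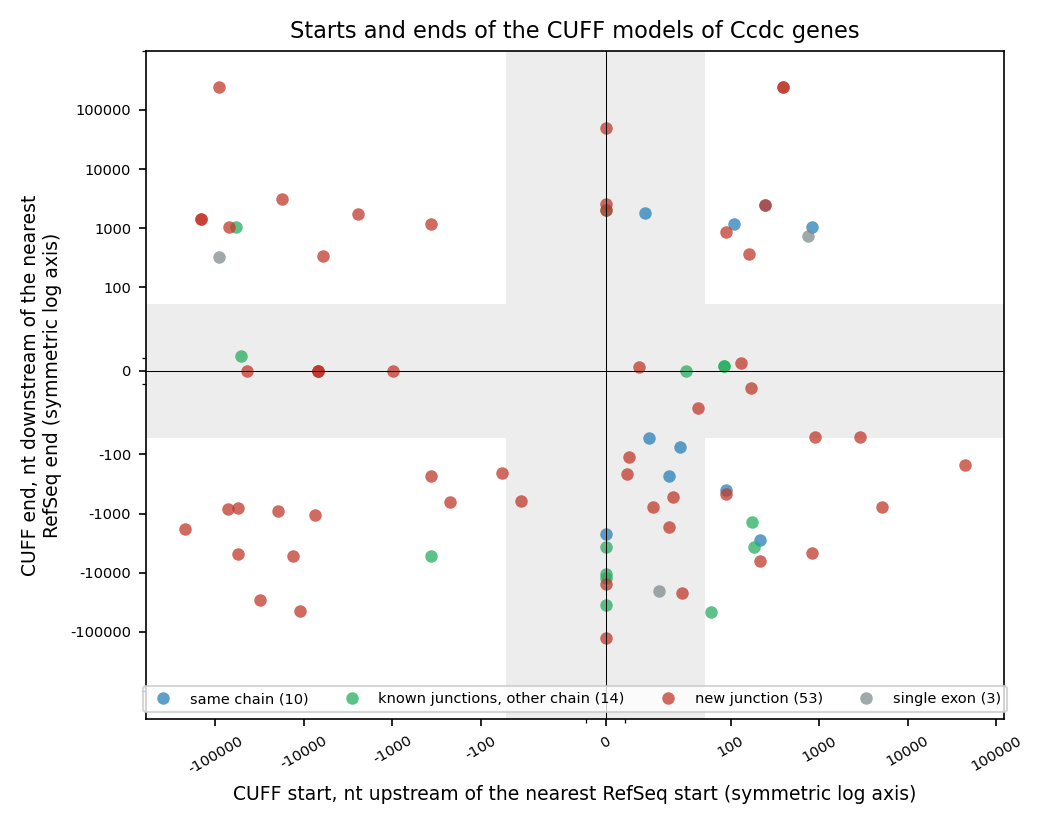
Start (horizontal axis, nt upstream of the nearest RefSeq start) and end (vertical axis, nt downstream of the nearest RefSeq end) of the 80 CUFF models of Ccdc genes on symmetric logarithmic axes, coloured by splice junctions, with grey bands over the 50 nt within which starts or ends count as the same. Starts inside the gene (left) reach 222842 nt whereas starts upstream of every RefSeq start reach 5165 nt, the point farthest right being Ccdc46, whose start is 44586 nt upstream of the nearest RefSeq start but inside the first. Ends short of the last RefSeq end by over 50 nt make up 41 of the 80.

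A splice junction absent from the gene's RefSeq-derived models was carried by CUFF models of 41 Ccdc genes (28.5%, background 16.8% of all genes, 18.0% of coding genes and 24.7% of genes with a code other than XX). A whole exon outside RefSeq exons was found in 33 (22.9%, background 12.4%, 13.2% and 18.1% of these sets), and a RefSeq intron kept inside an exon in 3 (background 3.18%, 3.40% and 4.16%). Of the 80 models, 53 had a new junction, 10 had the RefSeq chain and 3 were single exons. The other 14 had known junctions alone but not the full chain of any RefSeq model. They include models merely cut short at an end, such as that of Ccdc147. Both the start and the end were away in 42 models, and both were within 50 nt in 3.

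Ccdc7, now Ccdc7a, was the most altered. Its RefSeq-derived models ended 20015 and 85473 bp after the start, and its CUFF models of 57 and 60 exons began 389 nt upstream and ended 247633 nt past the last RefSeq end, at chr8:131256286-131589781 on the minus strand (mm9). They carried 43 and 46 junctions absent from RefSeq models. The other CUFF model, CUFF.26320.1, had 44 exons, began 90958 nt inside the first start, which is past the last RefSeq exon, and overlapped no RefSeq exon of the gene that names it. The last exon of these models overlapped the 3′ end of Itgb1, the integrin beta-1 gene on the other strand, by 1194 nt.

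Ccdc112 showed a model that runs through its neighbour. CUFF.12621.1 had 19 exons and 11528 nt, began at the RefSeq start, ended 49101 nt past the RefSeq end and contained all 8 junctions and all 2736 nt of Pggt1b, which encodes a subunit of a protein prenylation enzyme and begins 31078 bp downstream of the Ccdc112 start. This model is what made Ccdc112 the longest of the Ccdc genes, and its last exon of 8652 nt lies past the end of Ccdc112. In Ccdc9, 2 CUFF models ended 2030 nt past the RefSeq end and covered all 1680 nt of the single-exon gene Prr24.

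In 5 Ccdc genes the RefSeq junctions were carried by CUFF models under another name, so counts by symbol miss them. The same count over all genes was not made, so whether 5 is many is unknown. Ccdc79 (Terb1), which tethers meiotic telomeres to the nuclear envelope, had no CUFF model of its own, but 2 models of 19 exons named Nae1 carried 17 and 18 of its 19 junctions. The RefSeq-derived Nae1, the gene of a subunit of the NEDD8-activating enzyme, lay wholly upstream, from 24750 to 1141 bp before the Ccdc79 start. Ccdc36 (Iho1), needed for meiotic double-strand breaks, had 2 CUFF models without a symbol (8 exons, 3038 and 3051 nt) that held all 6 of its junctions. Both were coded XX and the RefSeq-derived model NM. All CUFF models without a symbol that faced, overlapped or lay within a Ccdc gene were coded XX, so the code is not particular to Ccdc36. In Ccdc136, an acrosome protein gene, a CUFF model without a symbol carried 11 of 16 junctions. In Ccdc169, 4 CUFF models named A730037C10Rik carried 5 or 6 of 7, and in Ccdc42b, now Cfap73, 2 models without a symbol carried 1 and 2 of 6.

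**Figure D4:**
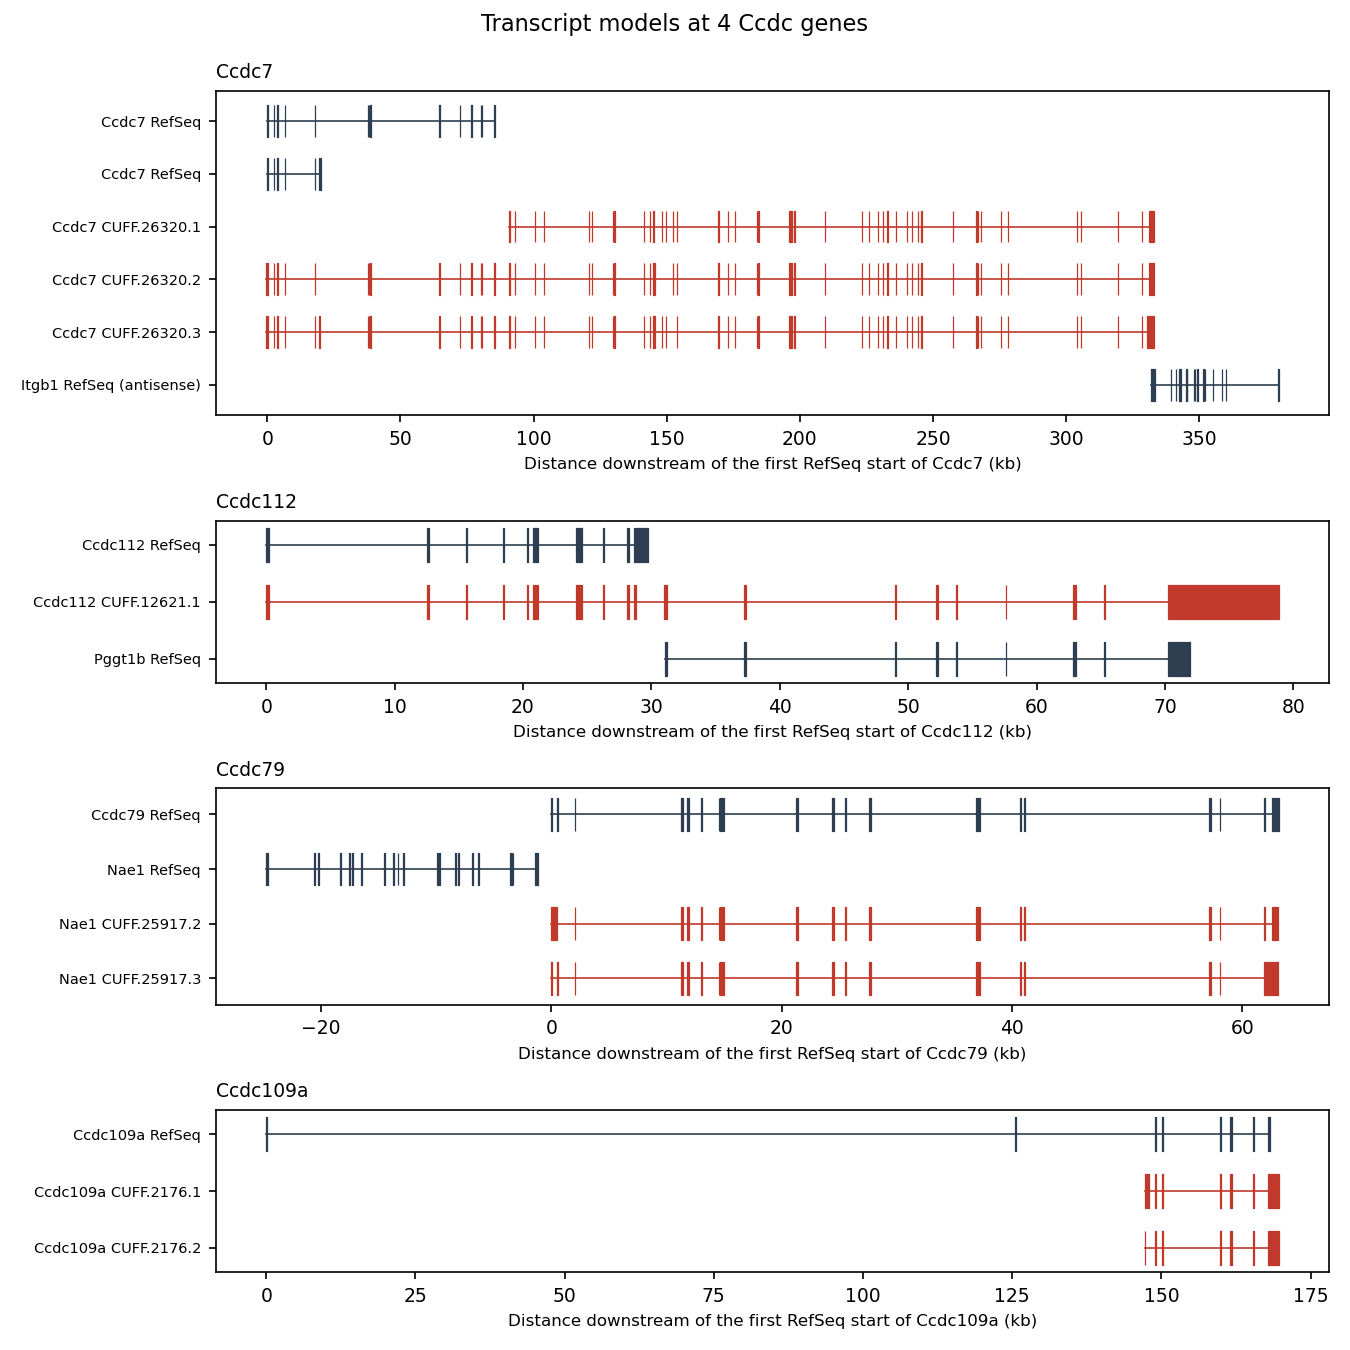
Exons (bars) and introns (lines) of the RefSeq-derived (dark) and CUFF (red) models at Ccdc7, Ccdc112, Ccdc79 and Ccdc109a, against distance downstream of the first RefSeq start of each (kb). The Ccdc7 CUFF models end over the 3′ end of the antisense gene Itgb1, the Ccdc112 model takes in all of Pggt1b, the Ccdc79 exons are carried by models named Nae1, and the Ccdc109a models leave out the 2 first exons.

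A head-to-head partner, meaning a model on the other strand whose start lies 1 to 500 bp away and diverges, was listed for 31 Ccdc genes (21.5%). The background was 11.3% of all genes, 11.3% of coding genes and 16.4% of genes with a code other than XX. A coding partner was listed for 22 (15.3%, background 7.76% of all genes, 7.60% of coding genes and 11.3% of genes with a code other than XX). Tmem genes had partners in 19.1% and coding partners in 13.9%, and Kif and Dnah genes in 16.7% and 12.5%. The Ccdc shares were thus above those of coding genes and near those of Tmem genes. All 22 coding pairs also held between RefSeq-derived starts alone, and no Ccdc gene faced another. Distances are between the nearest starts of any model, and in 3 coding pairs these included a CUFF start. The coding partner had a code other than XX in 21 of the 22 pairs, the exception being Oxld1, the partner of Ccdc137. This share was not counted for the partners of all coding genes.

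The distance between the facing starts had a median of 145 bp (9 to 484 bp), near the median of 138 bp over the 1544 coding genes with a coding partner. Between RefSeq-derived starts alone the Ccdc median was 156 bp. The closest was Ccdc159 with Tmem205 at 9 bp, then Ccdc87 with Ccs, the copper chaperone of superoxide dismutase, at 44 bp. Within 100 bp there were also Ccdc157 with Sf3a1, a splicing factor gene, at 61 bp, Ccdc137 with Oxld1 at 66 bp, Ccdc40 with Tbc1d16, a Rab GTPase-activating protein gene, at 73 bp, Ccdc127 with Sdha, the flavoprotein of succinate dehydrogenase, at 77 bp, and Ccdc59 with BC067068 at 99 bp. These close pairs set a flagellar gene beside genes of general cell functions in Ccdc40 and Ccdc87, and 2 mitochondrial genes together in Ccdc127.

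The axoneme list had 6 genes with a coding partner: Ccdc40 and Ccdc87 as above, Ccdc103 with Eftud2, a spliceosome GTPase gene, at 269 bp, Ccdc146 with Fam185a at 211 bp (226 bp between RefSeq-derived starts), Ccdc151 with Prkcsh, the glucosidase II beta subunit, at 401 bp, and Ccdc96 with Tada2b, a SAGA subunit, at 303 bp. Its 3 other partnered genes faced no coding gene. Ccdc42 faced the noncoding 4930535C22Rik at 75 bp, while Ccdc104 at 84 bp and Ccdc33 at 151 bp faced CUFF models without a symbol.

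The nuclear list had 4 of 11 genes with a coding partner. They include Ccdc59 and Ccdc137 as above and Ccdc75 (Gpatch11) with Heatr5b at 135 bp. The mitochondrial list had 3 of 7, all with coding partners: Ccdc51 with Tma7 at 115 bp, Ccdc58 with Fam162a at 118 bp (145 bp between RefSeq-derived starts) and Ccdc127. Of 16 centrosomal genes 6 were partnered but 2 with coding genes, Ccdc123 (Cep89) with C230052I12Rik at 112 bp between CUFF starts (326 bp between RefSeq-derived starts) and Ccdc92 with Zfp664 at 484 bp. Of 16 trafficking genes only Ccdc115, an assembly factor of the vacuolar proton pump, had 1, Imp4 at 157 bp, and none of the 3 meiotic genes did. Genes in no list gave 6 coding pairs: Ccdc18 with Tmed5 at 323 bp, Ccdc122 with Lacc1 at 155 bp, Ccdc148 with Pkp4 at 223 bp, Ccdc157, Ccdc159, and Ccdc173 with Phospho2 at 251 bp.

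The other 9 partnered genes faced models without coding code. CUFF models without a symbol faced Ccdc33, Ccdc61, Ccdc99, Ccdc104 and Ccdc124, at 151, 213, 120, 84 and 94 bp. Ccdc107 faced Rmrp, the RNA of the mitochondrial RNA-processing ribonuclease, at 306 bp, and Ccdc45 (Cep95) faced AL603664.2 at 265 bp. Ccdc41 (Cep83), a distal appendage gene needed for ciliogenesis, faced 4932415G12Rik at 2 bp and also a piRNA-named model at 173 bp, both measured from the start of its CUFF model. From the RefSeq-derived start of Ccdc41 the distance to 4932415G12Rik was 177 bp. The piRNA-named model was coded PI, lay at chr10:94136458-94151187 on the minus strand (mm9) and had 3 exons and 3744 nt. It was the only piRNA-named head-to-head partner of a Ccdc gene.

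**Figure D5:**
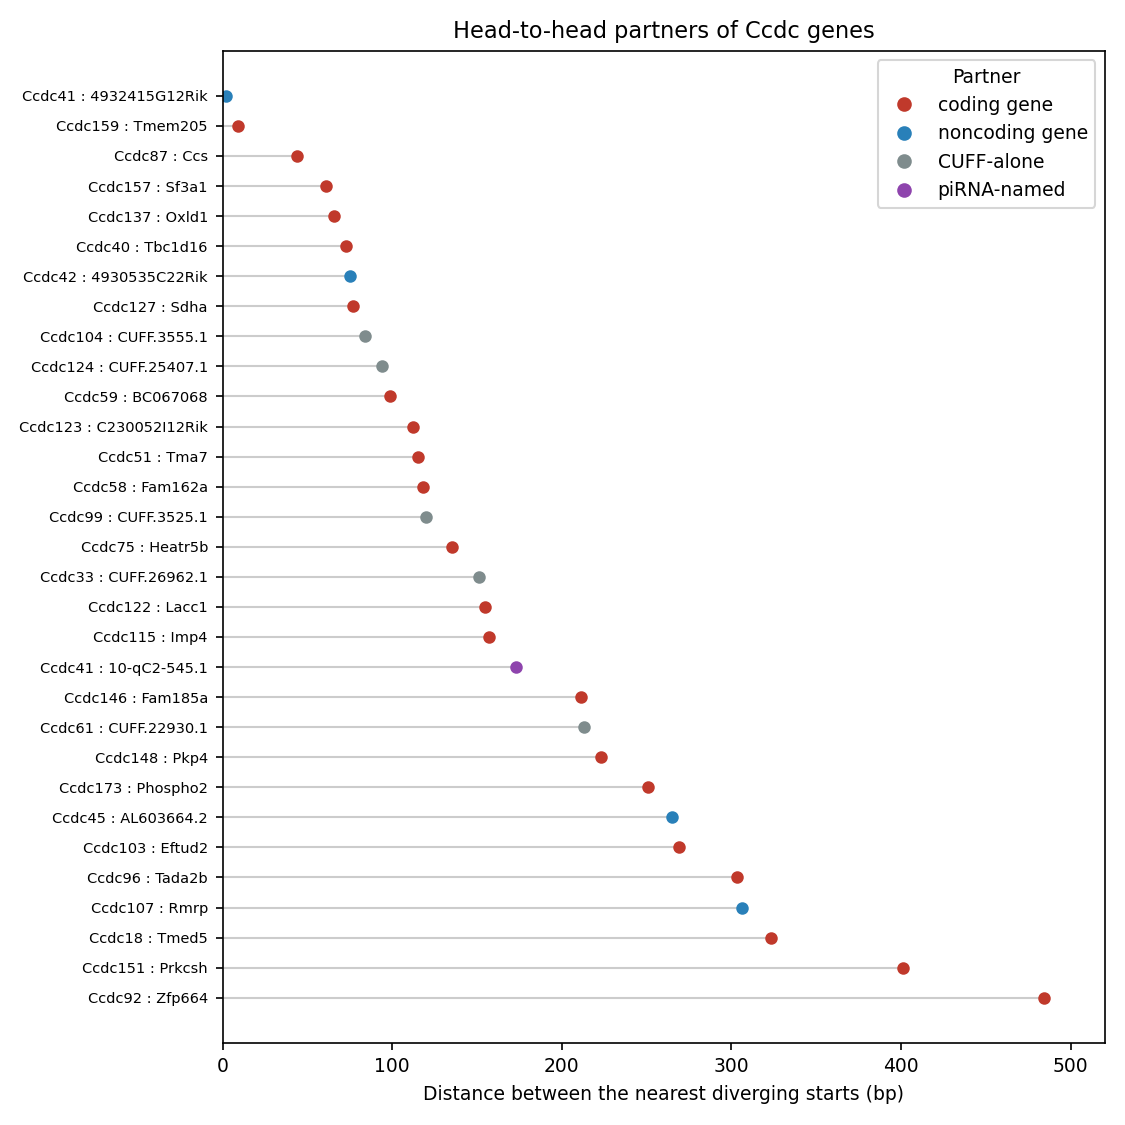
Distance between diverging starts (horizontal axis, bp) for head-to-head partners of 30 of the 31 Ccdc genes (vertical axis, Ccdc gene and partner, with both partners of Ccdc41), coloured by the kind of partner. Distances of the coding pairs run from 9 bp (Ccdc159 with Tmem205) to 484 bp (Ccdc92 with Zfp664), and models without a coding code are spread among them.

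Letters were searched in the RefSeq windows of the 119 Ccdc genes and of all 27025 genes with a window, on both strands. Unlike the backgrounds above, this set is not limited to the 22426 RefSeq-derived genes of the table. No motif share was counted over coding genes or genes coded alike. The 12 motifs were the X-box arm GTTGCC, the GC box GGGCGG, the box CCAAT, the TATA box TATAAA, the MYB element CCGTTA and the MYB cores AACTG and AACNGNC, the cAMP response element TGACGTCA and its core TGACG, the ETS element CCGGAAG, the YY1 element GCCATNTT and the ZNF143 element ACTACAA. The letters TGACG lie within TGACGTCA, and the MYB cores can overlap each other. A match is a description of the letters and not a binding site.

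The GC box was in the windows of 66 of 119 Ccdc genes (55.5%, against 38.2% of all genes) and of 17 of the 21 with a coding partner and a window (81.0%). TATAAA was in 10 Ccdc genes (8.40%, against 15.7% of all genes) and in 0 of the 21. The windows of partnered Ccdc genes had a median of 66% G and C and 26 CpG dinucleotides, those of all Ccdc genes 57.8% and 16.5, and those of all genes 52.7% and 7. The same values over all genes with a head-to-head coding partner were not counted, so nothing here is shown to be particular to partnered Ccdc genes. The part of base composition in the shares of GC-rich motifs was not tested. In 14 of the 15 pairs in which both genes had a window on the same build, the windows shared bases. The shared part ran from 17 bases in Ccdc92 and Zfp664 to 282 of 300 in Ccdc159 and Tmem205. Windows at starts 9 bp apart, as listed for Ccdc159 and Tmem205, would share fewer bases. The starts behind the windows of this pair are thus not those of the table. In the pair of Ccdc58 and Fam162a they shared 0. Some sharing follows from how pairs were chosen and is no separate finding. Each window reaches 250 bases before its start, and paired starts diverge by at most 500 bp. Windows placed at such starts must therefore overlap. The pairs were chosen by the starts in the table and the windows by RefSeq starts on another build, so the extent of sharing need not follow the listed distance. Why 1 pair shared 0 was not tested.

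GTTGCC was in the windows of 28 Ccdc genes (23.5%, against 14.1% of all genes) and of 9 of the 24 axoneme genes with a window (37.5%). The 9 were Ccdc37 (Cfap100), Ccdc67 (Deup1), Ccdc78, Ccdc96, Ccdc103, Ccdc105, Ccdc113, Ccdc147 (Cfap58) and Ccdc164 (Drc1). In all 9 the letters began within 100 bases of the start, as they did in 21 of the 119 Ccdc genes (17.6%) and in 8.03% of all genes. The limit of 100 bases was chosen after the positions were seen. The position ran from 79 bases before the start in Ccdc67 to 9 bases after it in Ccdc37. Of the 19 Ccdc genes with GTTGCC outside that list, Ccdc8, Ccdc47 and Ccdc152 had it farthest away, 242, 238 and 230 bases before the start.

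The ETS element was in 29 Ccdc genes (24.4%, against 9.93%), among them Ccdc79, Ccdc55 (Nsrp1) and Ccdc94 (Yju2), and in 3 of the 24 axoneme genes (12.5%). The MYB element CCGTTA was in 8 Ccdc genes (6.72%, against 3.15%), namely Ccdc21 (Cep85), Ccdc47, Ccdc88a, Ccdc88b, Ccdc110, Ccdc124, Ccdc130 and Ccdc163, and in 0 of the 24 axoneme genes. The MYB cores AACTG (43.7% against 48.2%) and AACNGNC (42.9% against 36.0%), CCAAT (47.9% against 41.1%), TGACG (25.2% against 23.0%), TGACGTCA (2.52% against 2.03%), YY1 (9.24% against 6.96%) and ZNF143 (2.52% against 3.78%) lay nearer to the share over all genes.

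Exons at the 3′ end overlapped those of a gene on the other strand, tail to tail, in 21 Ccdc genes (14.6%). The background was 5.56% of all genes, 5.71% of coding genes and 7.68% of genes with a code other than XX. Tmem genes stood at 5.22% and Kif and Dnah genes at 10.4%. Of the 131 Ccdc genes with a code other than XX, 19 had such an overlap (14.5%). The Ccdc share was thus above each of these shares, with no test of the difference. The overlap had a median of 201 nt and ran from 1 nt, in Ccdc64b with Thoc6, to 1502 nt, in Ccdc39 with Ttc14. Only pairs of models in which neither runs past the start of the other were counted. For Ccdc127 and Lrrc14b this gave 87 nt, while the longest Ccdc127 model passes the Lrrc14b start and its exons overlap those of Lrrc14b by 1723 bp. The other overlaps over 1000 nt were Ccdc7 with Itgb1 (1194 nt), Ccdc85b with Fosl1 (1155 nt), Ccdc111 with Mlf1ip (1069 nt) and Ccdc86 with Gpr44 (1031 nt). Ccdc22, a subunit gene of the endosomal CCC complex on the X chromosome, overlapped Foxp3, the regulatory T cell factor, by 590 nt, and Ccdc38 overlapped Snrpf by 567 nt.

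In 20 of the 21 the other gene was coding, the exception being A330050B17Rik at Ccdc144b. Both a head-to-head partner and a tail overlap were found in 5 genes, among them Ccdc104, Ccdc127, Ccdc137 and Ccdc157. Genes with both were not counted over the whole table, so the 5 have no background. Because the table gives models and not reads, which strand a read in these overlaps came from was not examined.

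Models that lie within or across Ccdc genes were few. A CUFF model without a symbol lay over an exon on the same strand in 3 genes (background 1.83% of all genes, 1.49% of coding genes and 2.30% of genes with a code other than XX), Ccdc36, Ccdc42b and Ccdc136, and on the opposite strand in 2 (background 3.65%, 3.78% and 3.90%), Ccdc46 and Ccdc57. In 7 genes such a model lay inside an intron (background 5.63%, 5.73% and 7.22%). At the start of Ccdc46 a piRNA-named model (chr11:108278890-108286739, minus strand, mm9, 1 exon of 7850 nt, coded PI) overlapped the first exon by 86 bp from the other strand. Fgl2 lay inside an intron of Ccdc146 on the opposite strand.

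A pair of microRNA genes lay inside introns of Ccdc genes on the same strand and were coded XX, while their hosts were coded NM. The share of XX among all microRNA genes of the table was not counted, so the code may not be particular to this pair. Mir423 lay in Ccdc55 (Nsrp1), a splicing regulator gene, at chr11:76891566-76891674, and Mir1190 in Ccdc88c at chr12:102259883-102260003, both in mm9 and on the minus strand. Their mature RNAs from RefSeq (GRCm38.p6) are shown with the seed, bases 2 to 8, in capitals.
miR-423-5p: uGAGGGGCagagagcgagacuuu
miR-423-3p: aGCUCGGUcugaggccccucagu
miR-1190: uCAGCUGAgguuccccucuguc
The 3 seeds differ from each other.

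By role, codes other than XX were the rule in each list, and CUFF models were less even. Of the axoneme, cilium and sperm list 29 of 32 symbols were found, 28 had a code other than XX and 9 had a CUFF model. All 3 meiotic genes had such a code and none had a CUFF model under its symbol, with the exception in naming given above for Ccdc79 and Ccdc36. Of 16 centrosomal genes 16 had such a code and 10 had a CUFF model. For the mitochondrion the counts were 5 and 3 of 7, for the nucleus 11 and 2 of 11, and for trafficking and signalling 15 and 11 of 16.

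The trafficking list also had the most alternatives, with at least 2 starts in 9 of 16 genes, at least 2 ends in 9 and a new junction in 9. The centrosomal list had them in 7, 7 and 6 of 16. Counts were 7, 8 and 7 of 29 in the axoneme list and 1, 1 and 2 of 11 in the nuclear list. The background was 26.6%, 23.0% and 16.8% of all genes and 28.5%, 24.4% and 18.0% of coding genes. Among genes with a code other than XX it was 35.8%, 32.4% and 24.7%. Median spliced length was 4303.5 nt in the trafficking list, against 2453 nt in the axoneme list and 2099 nt in the nuclear list, so the list with the longest models was also the one with the most alternatives. Within it Ccdc88a and Ccdc88c had 3 models each and Ccdc88b 4, whereas Ccdc22, Ccdc47, Ccdc80, Ccdc115 and Ccdc134 had 1.

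In the axoneme list 17 of the 29 genes had a single model (58.6%), near the 61.5% of all genes. They include Ccdc39, Ccdc40 and Ccdc103, and Ccdc65 and Ccdc135 of the regulatory complex. Ccdc33 had 4 models with 3 starts and 1 end. Ccdc104 (Cfap36) and Ccdc62 had 3 models with 2 starts and 3 ends each. Ccdc63, a dynein arm gene of sperm, had a CUFF model that began 6025 nt inside and ended 343 nt past the RefSeq end, and Ccdc38 and Ccdc67 each kept 1 start with 2 ends. Ccdc11 (Cfap53), a gene of ciliary motility and left-right asymmetry, had 2 RefSeq-derived models with 1 start and 1 end.

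Ccdc genes were on all autosomes and the X, with 17 on chromosome 11, 13 on chromosome 7 and 12 on chromosome 9. On the X there were 3, Ccdc22, Ccdc120 and Ccdc160, which is 0.309% of its 971 RefSeq-derived genes. Over all chromosomes the share was 0.642%, and by chromosome it ran from 0.273% on chromosome 12 to 1.01% on chromosome 11 among the autosomes. On the Y there were 0 of 12. All 3 genes on the X had a code other than XX, 1 model, 1 start and 1 end.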

How the data were processed

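The authors deposited 1 headerless table of 12 columns in BED form with 50081 transcript models, and its measurements (unit: other) are positions in bp, exon numbers and exon lengths. The submitters' processing notes name TopHat2 2.0.4 and mm9, and the labels do not say how the models were assembled or coded. The table holds no counts, so library depth is unknown. All 50081 models were kept. Coordinates are mm9, counted from 1, and RefSeq symbols and windows are those of GRCm38.p6.

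A RefSeq-derived model has a symbol and a RefSeq accession, a CUFF model an assembler name with a symbol, and others an assembler name alone. Starts or ends within 50 nt counted as 1. CUFF models were set against the RefSeq-derived models of the same symbol. Head-to-head starts lay 1 to 500 bp apart, from any start, and overlaps had at least 1 bp. Python 3.11.15, numpy 2.4.6 and matplotlib 3.10.9 were used, and the counting was checked on simulated models. No test was possible: there is 1 library per group, and genes are not replicates. Counts therefore stand beside the same count over all genes where that was made.

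The members and role lists were chosen with earlier results of these data known. The naming rule took the role lists, the members with 5 or more models, the 5 longest, the 5 shortest, the 5 with the most exons, those with head-to-head partners and the 10 with the largest CUFF start and end distances. Other names, the motifs described, the tail-to-tail and shared-junction counts and the printed windows were chosen after values were seen. Role lists rest on general knowledge, and 11 listed symbols were not in the table. Alternatives changed the merging distance, the partner limit, the choice of models and the minimum overlap. The counts of partners include 1 pair that the text does not name.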

Additional observations from a re-analysis of the deposited data

How the results depend on the processing

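The counts of alternatives rest on CUFF models: with RefSeq-derived models alone, Ccdc genes with at least 2 starts went from 42 to 6 and those with at least 2 ends from 51 to 8. With partners limited to 200 bp, genes with a head-to-head partner went from 31 to 19 and those with a coding partner from 22 to 13, against 7.82% and 5.08% of coding genes, and at 1000 bp they were 36 and 26. Merging within 10 or 200 nt gave 53 and 34 genes with at least 2 starts and 55 and 47 with at least 2 ends. Outermost starts, an overlap of 100 bp, CUFF models without a symbol and leaving out unplaced sequences each moved a count by less than 1.5 times. No paired analysis was possible because each group has 1 library and the table has no value per library. Library depth is unknown, so a start, end or CUFF model that is not listed is not shown to be absent. Counts by symbol miss models under another name, as at Ccdc79.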
